A study of Mus musculus with 8 samples.

Results

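The transcripts of 9 genes at the centre of the pluripotency network were followed in mouse embryonic stem (mES) cells with and without CX-5461, an inhibitor of RNA polymerase I, the enzyme that transcribes the rRNA genes. The genes were taken by name (Pou5f1, Sox2, Nanog, Sall4, Prdm14, Utf1, Fgf4, Nr5a2 and Tcf3), and all 9 were found among the 54146 gene identifiers of both tables. The cells were mES cells derived from the inner cell mass and grown for 2 days on 0.1% gelatin with mouse embryonic fibroblast (MEF) feeder cells in medium with LIF and 2i, a mixture that holds mES cells in the naive state. Control cells were untreated and the others were treated with CX-5461; dose and time are not given in the labels of these samples. The labels list 4 samples per condition, but all barcodes of a condition stand in 1 table without a sample of origin, and the study's reporting summary names 1 biological replicate. Each condition was therefore 1 library. Treatment and library cannot be told apart, no test between conditions was possible, and every interval given is a 95% interval of counting error only.

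Pou5f1 encodes OCT4, a POU-domain factor that binds DNA together with the HMG-box factor SOX2 at many enhancers of mES cells, and the homeobox factor NANOG occupies many of the same sites. OCT4, SOX2 and NANOG activate their own and each other's genes. SALL4 is a zinc-finger factor that binds near OCT4 and NANOG, PRDM14 a zinc-finger factor that keeps naive cells low in FGF signalling and DNA methylation, UTF1 a chromatin-bound factor of undifferentiated cells, and NR5A2 a nuclear receptor that can act upstream of Pou5f1. Fgf4 is a classical target of OCT4 and SOX2 and encodes a secreted growth factor, not a transcription factor. The GENCODE symbol Tcf3 stands for the E protein E2A, a basic helix-loop-helix factor present in many cell types. The WNT effector known in the older mES cell literature under the same symbol is Tcf7l1, so Tcf7l1 was read beside Tcf3 as a gene outside the set.

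The letters of a POU motif and a SOX motif lie side by side in the promoter of Nanog. The RefSeq promoter table (GRCm38.p6, 250 bases before to 50 after each start) held 7 of the 9 genes, in 10 entries. On both strands, the motifs searched were CATTGT for SOX factors, ATGCAAA for the octamer of POU factors, and both next to each other as CATTGTNATGCAAA, of which each match also holds a match of the other motifs. The SOX motif was found in 12.6% of all 32851 promoter entries and the octamer in 4.63%, and the composite was in 2 entries, both of Nanog. The 2 Nanog entries overlap and hold the same match, so the composite was found at 1 site. Sox2 held the octamer motif and not the SOX motif. The promoters of Nanog (chr6:122707239-122707538, plus strand) and Sox2 (chr3:34649745-34650044, plus strand) are shown because Nanog and Sox2 were the core genes with an entry that held the octamer, with the matches in capitals. Both Nanog entries hold the composite, and the one that begins at the GENCODE gene start is printed. The Sox2 entry lies before the GENCODE start of that gene.
Nanog: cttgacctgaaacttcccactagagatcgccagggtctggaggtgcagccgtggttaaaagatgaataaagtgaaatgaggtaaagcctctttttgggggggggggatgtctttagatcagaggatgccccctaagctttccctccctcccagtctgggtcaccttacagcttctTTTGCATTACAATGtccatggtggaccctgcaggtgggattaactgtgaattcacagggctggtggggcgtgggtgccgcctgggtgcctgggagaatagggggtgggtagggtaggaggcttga
Sox2: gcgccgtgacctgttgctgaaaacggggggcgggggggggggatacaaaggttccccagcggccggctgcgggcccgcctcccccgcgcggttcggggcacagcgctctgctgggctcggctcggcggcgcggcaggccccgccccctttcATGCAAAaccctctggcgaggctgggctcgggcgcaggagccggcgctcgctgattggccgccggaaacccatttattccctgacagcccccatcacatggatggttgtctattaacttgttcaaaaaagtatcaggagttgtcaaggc
In Nanog the composite lies on the minus strand, 75 to 62 bases before the start. A match is a description of the letters, and no binding was measured in these samples.

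Levels were compared in ES cells, taken as barcodes with at least 5000 unique molecular identifiers (UMIs, each marking 1 captured RNA molecule), at most 10% of them from mt- genes, and under 0.2% from 10 fibroblast marker genes. This left 2544 control cells with a median of 15780.5 UMIs and 4031 CX-5461 cells with a median of 14676. The median share of mitochondrial UMIs was 1.92% in control and 4.00% in CX-5461 cells. All 10 ES cell markers were detected in both libraries at the deposited depth, at a summed 6294 and 7219 UMIs per 1000000 UMIs (CPM). Markers of other cells were low, with fibroblast markers at a summed 68.6 CPM in control and 23.5 CPM in CX-5461 cells. All 7 primitive endoderm markers were detected and summed to 2.08 and 4.36 CPM, all 7 trophoblast markers to 32.1 and 34.6 CPM, and the 6 macrophage markers, of which 6 and 5 were detected, to 26.9 and 26.6 CPM. The fibroblast cut let more mixed cells through in control, where 87 ES cells had 0.02% or more of fibroblast UMIs against 28 in the CX-5461 library, so the shares of cells without Pou5f1, without Sall4 and without any of the 9 genes are given with and without these cells. Each ES cell was thinned at random to 5000 UMIs before comparison unless stated otherwise. For shares without the mixed cells the remaining cells were thinned anew, so a new random draw also enters them.

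In CX-5461 cells the 9 genes did not move together. On library totals Sall4 was the most different, Pou5f1 and Utf1 were lower, Sox2, Prdm14 and Nanog higher, and Fgf4, Nr5a2 and Tcf3 differed least. The 9 together took 1435 CPM in control (interval 1414 to 1456) and 1272 CPM in CX-5461 cells (1257 to 1288), and without Pou5f1, which supplied 62.5% and 56.7% of these UMIs, the sum was 537 and 550 CPM. Among the 10547 genes that reached 100 UMIs in the summed libraries, the median had a log2 ratio of CX-5461 over control of 0.32, so a gene at the same share of UMIs in both libraries stood below most genes. Ribosomal protein genes took 28.8% of thinned UMIs in control and 23.8% in CX-5461 cells, and with these genes left out of the totals the median gene stood at 0.22. Ratios are therefore given on library totals and relative to the median gene. Relative to the median gene, 3 of the 9 were lower by 1.5-fold or more (Sall4, Utf1 and Pou5f1) and 0 were higher, where 17.4% of all tested genes were lower and 20.9% higher. At a fold of 2 Sall4 alone was lower, where 7.11% of all genes were lower and 12.3% higher. On library totals Sall4 alone was lower by that fold, where 8.44% of all genes were, and Sox2 and Prdm14 were higher, where 34.1% of all genes were. The median log2 ratio of the 9 was -0.04 on totals and -0.36 relative to the median gene.

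**Figure D1:**
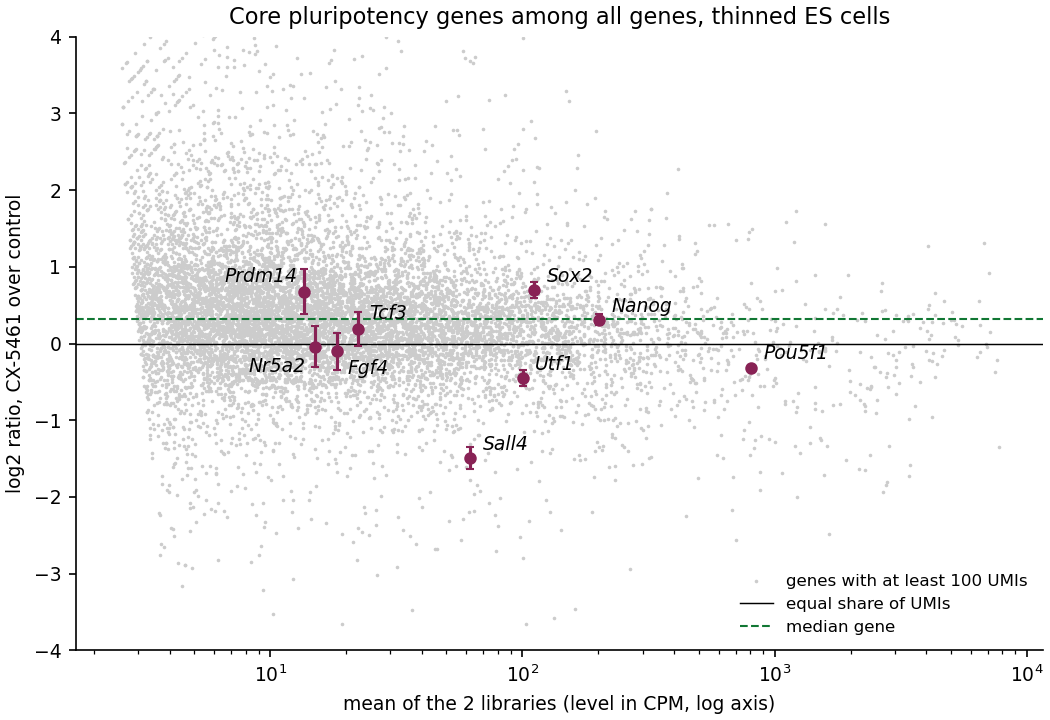
Log2 ratio of CX-5461 over control on library totals against the mean level in CPM (log axis) for the 10547 genes tested (grey), with the 9 core genes in purple and bars for 95% intervals of counting error. The dashed line is the median gene at 0.32, Sall4 lies far below it, Nanog lies on it, and 149 genes lie outside the axis of 4 log2 units.

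Pou5f1 (chr17:35506018-35510772, plus strand, GRCm38) was at 897 CPM in control (881 to 914) and 722 CPM in CX-5461 cells (710 to 734), which is 1.24-fold lower (1.21 to 1.27). The log2 ratio was -0.31 on totals and -0.63 relative to the median gene, the 15.6th percentile of all tested genes. The median cell held 4 UMIs in control and 3 in CX-5461, with quartiles of 3 to 6 and 2 to 5. The whole distribution lay lower in CX-5461 cells, and it was also wider for its mean, with a variance-to-mean ratio of 1.26 in control and 1.47 in CX-5461 cells, where counting alone gives 1.

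Sox2 (chr3:34650405-34652461, plus strand) went the other way on both scales. It was at 85.1 CPM in control (80.1 to 90.4) and 138 CPM in CX-5461 cells (133 to 143), 1.62-fold higher (1.51 to 1.74), with a log2 ratio of 0.69 on totals and 0.38 relative to the median gene. The ratio of these partner transcripts shifted accordingly, from 9.49 Sox2 UMIs per 100 Pou5f1 UMIs in control to 19.1 in CX-5461 cells. Cells with a Sox2 UMI made up 33.1% of control (31.2 to 34.9) and 48.4% of CX-5461 cells (46.8 to 49.9).

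Nanog (chr6:122707489-122714633, plus strand) was at 179 CPM in control (172 to 187) and 222 CPM in CX-5461 cells (215 to 228), 1.24-fold higher on totals. Relative to the median gene its log2 ratio was -0.01 (-0.08 to 0.06), so the direction depends on the scale. Cells with a Nanog UMI made up 56.5% of control (54.5 to 58.4) and 62.0% of CX-5461 cells (60.5 to 63.5). In cells under 0.02% of fibroblast UMIs, thinned anew, Nanog was at 193 CPM in control and 226 CPM in CX-5461 cells. The log2 ratio there was 0.23 on totals and -0.10 relative to the median gene, so the difference on totals was smaller. The shares of cells with a Nanog UMI were 61.3% and 63.0%. The difference in detection was smaller there, but the cells left out and the new random draw both enter it and were not told apart. The variance-to-mean ratio without the cells at 0.02% or more of fibroblast UMIs was 1.07 in control and 1.24 in CX-5461 cells.

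Sall4 (chr2:168748332-168767943, minus strand) was the member with the largest difference, at 91.5 CPM in control (86.3 to 96.9) and 32.5 CPM in CX-5461 cells (30.1 to 35.1). It was 2.81-fold lower (2.55 to 3.10), with log2 ratios of -1.49 on totals and -1.81 relative to the median gene, the 1.81th percentile of all tested genes. Cells with a Sall4 UMI made up 34.2% of control (32.4 to 36.1) and 14.7% of CX-5461 cells (13.6 to 15.8). There were 107 Sall4 UMIs per 100 Sox2 UMIs in control and 23.6 in CX-5461 cells. No Sall4 UMI was found in 85.3% of CX-5461 cells, where Poisson counting at the same mean in every cell gives 85.0%, and in 65.8% of control cells, where it gives 63.3%. In cells under 0.02% of fibroblast UMIs, thinned anew, the shares at 0 were 84.0% in CX-5461 and 62.7% in control.

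Utf1 (chr7:139943789-139945112, plus strand) was 1.37-fold lower on totals (1.27 to 1.47), at 116 CPM in control and 84.9 CPM in CX-5461 cells, with a log2 ratio of -0.77 relative to the median gene. Cells with a Utf1 UMI made up 40.3% of control (38.4 to 42.3) and 31.4% of CX-5461 cells (30.0 to 32.9). Prdm14 (chr1:13113457-13127163, minus strand) was 1.59-fold higher on totals (1.30 to 1.96), at 10.5 CPM in control and 16.7 CPM in CX-5461 cells, with a log2 ratio of 0.35 relative to the median gene. It was seen in 4.87% of control and 7.89% of CX-5461 cells. Utf1 thus followed Pou5f1 in direction and Prdm14 followed Sox2, on both scales.

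In thinned cells the intervals of the remaining genes on totals include 0. Fgf4 (chr7:144847367-144865243, plus strand) was at 19.1 CPM in control and 17.8 CPM in CX-5461 cells, with a log2 ratio of -0.10 (-0.34 to 0.14) on totals and -0.42 relative to the median gene. Nr5a2 (chr1:136842571-136960448, minus strand) was at 15.3 and 14.8 CPM, with a log2 ratio of -0.04 (-0.31 to 0.23) on totals and -0.36 relative to the median gene. Tcf3 (chr10:80409514-80433647, minus strand) was at 20.9 and 23.9 CPM, with a log2 ratio of 0.19 (-0.03 to 0.41) on totals and -0.13 relative to the median gene, so its direction also depends on the scale. Tcf7l1, the WNT effector that once shared its symbol, was at 40.7 and 38.5 CPM, with a log2 ratio of -0.08 (-0.25 to 0.08) on totals. An interval that includes 0 does not show equal levels. In the same ES cells at the deposited depth, with more UMIs, the log2 ratio on totals was 0.19 (0.07 to 0.31) for Tcf3 and -0.13 (-0.22 to -0.04) for Tcf7l1, both with intervals that leave out 0. There it was -0.13 (-0.25 to 0.002) for Fgf4 and 0.14 (-0.01 to 0.29) for Nr5a2. Relative to the median gene at that depth, 0.36, all 4 were lower.

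A fibroblast-like cell gives the level that free RNA and mixed droplets can leave. In fibroblast-like cells with at least 5000 UMIs, thinned alike, a Pou5f1 UMI was seen in 20 of 102 control cells (19.6%) and 15 of 143 CX-5461 cells (10.5%), a Sox2 UMI in 2 and 1, a Nanog UMI in 3 and 4, and a Sall4 UMI in 0 and 1. For 7 of the 9 genes the share in fibroblast-like cells lay below that in ES cells beyond both intervals in both libraries. Prdm14 was seen in 1 fibroblast-like cell of each library, and in control its intervals overlapped (0.98%, 0.02 to 5.34, against 4.87% of ES cells). Tcf3 was different, with a UMI in 12.7% of control (7.0 to 20.8) and 7.0% of CX-5461 (3.4 to 12.5) fibroblast-like cells, against 9.94% and 10.9% of ES cells. Its level there was 25.5 and 18.2 CPM, so Tcf3 did not mark the ES cells. Since many cell types express Tcf3, fibroblast-like cells give no background level for this gene. Over all fibroblast-like cells kept by the methods' filter, 109 in control and 144 in the CX-5461 library, the median depth was 21209 and 24958 UMIs. The thinned cells are a part of these.

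**Figure D2:**
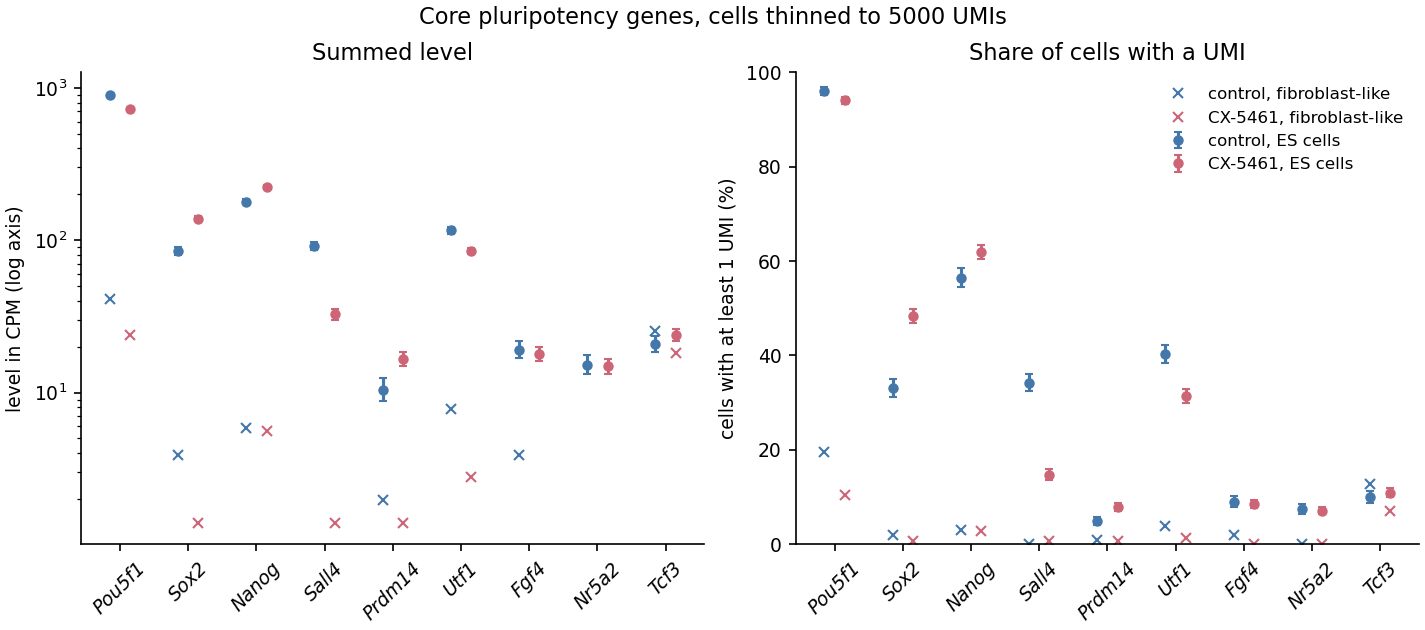
Summed level in CPM (left, log axis) and share of cells with at least 1 UMI (right) of the 9 genes in thinned ES cells (points, with 95% intervals of counting error) and in thinned fibroblast-like cells (crosses, left out of the log axis at 0 UMIs), control in blue and CX-5461 in red. Sall4 goes from 34.2% to 14.7% of ES cells and Sox2 goes from 33.1% to 48.4%, while the crosses of Tcf3 lie at its ES cell points.

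The order of the libraries turned with thinning for 2 of the 9 genes. At the deposited depth a Pou5f1 UMI was found in 98.0% of control and 99.1% of CX-5461 cells, and after thinning in 96.1% and 94.1%. In cells under 0.02% of fibroblast UMIs, thinned anew, it was found in 98.1% and 94.0%. The mixed cells, more of them in control, thus also enter the Pou5f1 shares, and the deposited depth was not read without them. A Nanog UMI was found in 89.0% of control and 87.8% of CX-5461 cells at the deposited depth, and after thinning the CX-5461 share was the higher. For Sox2 (68.4% and 80.7% at the deposited depth), Sall4 (68.8% and 38.0%), Utf1 (70.8% and 58.6%) and Prdm14 (13.4% and 19.4%) the order was the same at both depths.

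All of Pou5f1, Sox2 and Nanog were seen in 19.0% of control (17.5 to 20.6) and 30.1% of CX-5461 ES cells (28.7 to 31.5), thinned alike. The mean number of the 9 genes seen in a cell was 2.91 in control and 2.85 in CX-5461 cells, so the joint share of the 3 differed although the number of core genes per cell was close. A cell without any of the 9 was found in 2.59% of control and 1.04% of CX-5461 cells. In cells under 0.02% of fibroblast UMIs, thinned anew, that order turned. Cells without any of the 9 then numbered 11 in control (0.45%, 0.22 to 0.80) and 27 in the CX-5461 library (0.67%, 0.44 to 0.98), whose intervals overlap. There all 3 were seen in 20.5% and 29.2% of cells, and the mean number seen was 3.02 and 2.83.

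Cells with no Pou5f1 UMI after thinning numbered 100 in control (3.93%, 3.21 to 4.76) and 237 in the CX-5461 library (5.88%, 5.17 to 6.65). Poisson counting at the same mean in every cell gives 1.13% and 2.71%. At the deposited depth 98.0% of control and 99.1% of CX-5461 cells held a Pou5f1 UMI. Most of the 237 CX-5461 cells were thus at 0 through thinning and are no class of cells without Pou5f1. The cells at 0 after thinning differed between the libraries. In control 63 of the 100 had 0.02% or more of fibroblast UMIs and 32 had at least 5 thinned UMIs of the 10 ES cell markers. In the CX-5461 library 15 of the 237 had that fibroblast share and 218 (92.0%) had at least 5 ES cell marker UMIs. Among these cells without Pou5f1, Sox2 was seen in 10 of 100 control and 103 of 237 CX-5461 cells (43.5%), and Nanog in 19 of 100 and 145 of 237 (61.2%). In the CX-5461 library these shares stood beside 48.7% for Sox2 and 62.0% for Nanog in cells with Pou5f1. Without the cells at 0.02% or more of fibroblast UMIs, thinned anew, 46 of 2457 control cells (1.87%) and 241 of 4003 CX-5461 cells (6.02%) had no Pou5f1 UMI. The difference in the share of such cells was thus larger without the mixed cells, and Pou5f1 stood at 926 and 721 CPM.

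**Figure D3:**
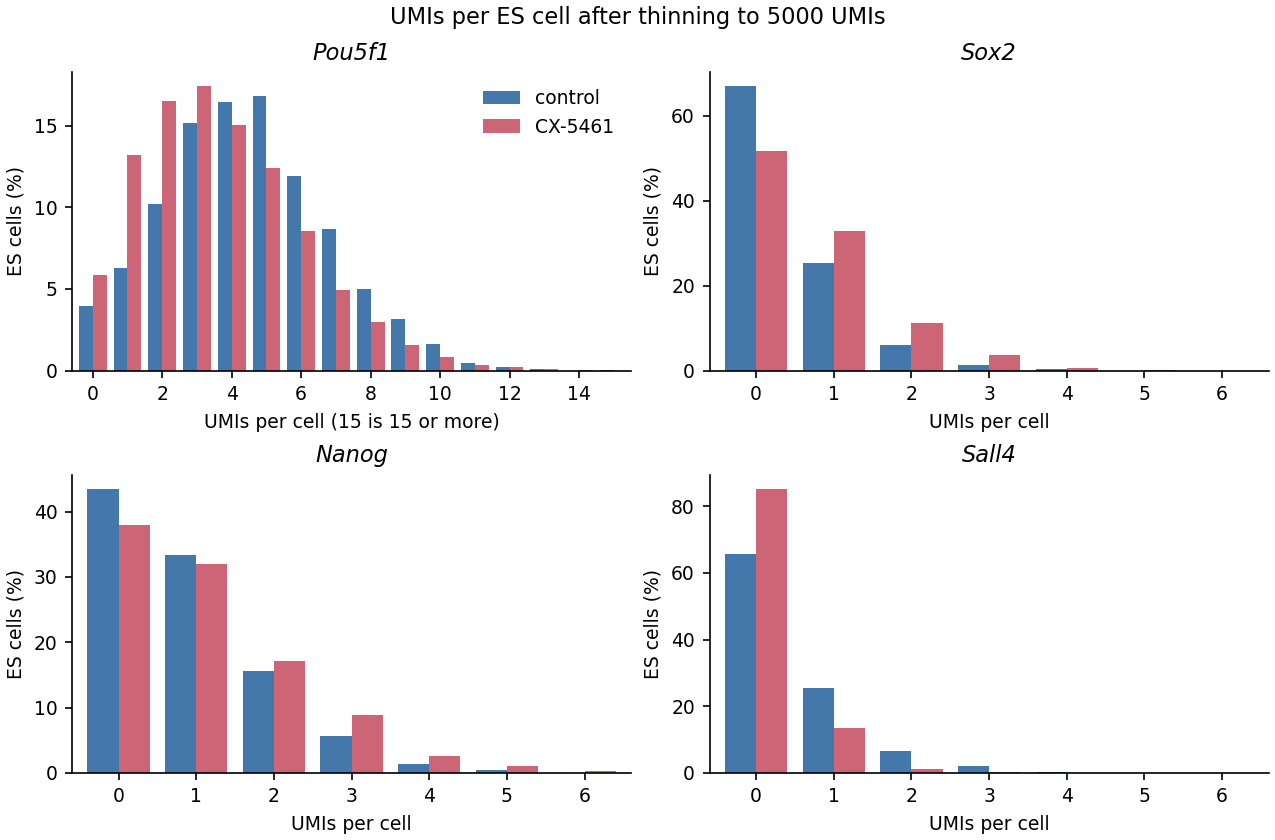
Percent of ES cells (vertical axis) by number of UMIs per cell after thinning to 5000 UMIs (horizontal axis) for Pou5f1, Sox2, Nanog and Sall4, control in blue and CX-5461 in red. The Pou5f1 bars peak at 5 UMIs in control and 3 in CX-5461 cells, and Sall4 is at 0 in 65.8% of control and 85.3% of CX-5461 cells.

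On library totals the ratios of Pou5f1, Utf1, Nanog and, in the deepest cells, Sall4 differed with the number of UMIs in a cell. In ES cells of 5000 to under 10000 UMIs (264 control and 363 CX-5461 cells, not thinned) Pou5f1 was at 822 CPM in control and 582 CPM in CX-5461 cells, a log2 ratio of -0.50 (-0.60 to -0.40). In cells of 10000 to under 20000 UMIs (1577 and 3085 cells) it was at 927 and 726 CPM, a log2 ratio of -0.35 (-0.38 to -0.33). In cells of 20000 UMIs or more (703 and 583 cells) it was at 885 and 859 CPM, a log2 ratio of -0.04 (-0.08 to -0.01). Within the CX-5461 library the Pou5f1 level was higher in each deeper range, and the gap to control on totals was smaller. The median gene also differed between the ranges, at 0.17, 0.34 and 0.29. Relative to it Pou5f1 was at -0.67, -0.70 and -0.33, so on that scale the gap was smaller in the deepest range alone. Utf1 had log2 ratios on totals of -0.79 (-1.09 to -0.49), -0.45 (-0.52 to -0.37) and -0.25 (-0.35 to -0.15) in the same order of depth, and -0.96, -0.79 and -0.54 relative to the median gene. Nanog had log2 ratios on totals of 0.10, 0.22 and 0.56, or -0.07, -0.13 and 0.27 relative to the median gene, and in the deepest cells it stood at 161 CPM in control and 238 CPM in CX-5461.

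On totals Sox2 differed little across the ranges (0.79, 0.63 and 0.73), and Sall4 was lower in each (-1.48, -1.52 and -1.11). The gap of Sall4 was smaller in the deepest cells (interval -1.27 to -0.96) than in the middle range (-1.61 to -1.42). In cells under 0.02% of fibroblast UMIs it was -1.20 in the deepest and -1.54 in the middle range. The deepest control cells held fibroblast markers at a summed 118 CPM, against 29.6 CPM in the deepest CX-5461 cells. With cells under 0.02% of fibroblast UMIs alone the log2 ratios on totals of Pou5f1 were -0.50, -0.37 and -0.14 and those of Nanog 0.05, 0.20 and 0.46, so the order was the same and the spread smaller.

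**Figure D4:**
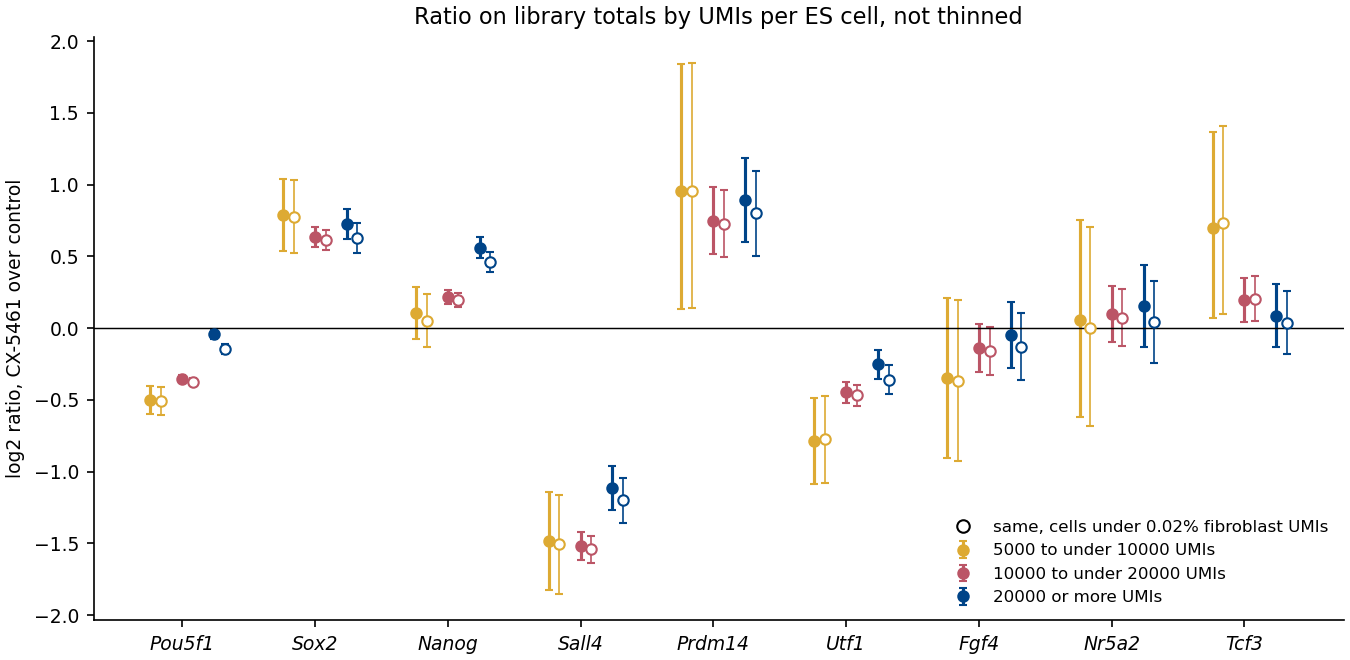
Log2 ratio of CX-5461 over control on library totals for the 9 genes in ES cells of 5000 to under 10000, 10000 to under 20000 and 20000 or more UMIs (not thinned), with 95% intervals of counting error. Open points leave out cells with 0.02% or more of fibroblast UMIs, and the points of Pou5f1 climb from -0.50 to -0.04 with all cells and from -0.50 to -0.14 without those.

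Among cells outside the ES set, those with fewer than 5000 UMIs (1107 control and 196 CX-5461 cells, with medians of 2264 and 4165 UMIs) had Pou5f1 at 513 and 490 CPM and Sall4 at 60.5 and 29.5 CPM. Their median shares of mitochondrial UMIs were 12.2% and 15.7%. CX-5461 cells with over 10% and up to 20% mitochondrial UMIs (326 cells) had Pou5f1 at 577 CPM, Sox2 at 68.5 CPM, Nanog at 232 CPM and Sall4 at 37.0 CPM; control held 7 such cells. The levels of Nanog and Sall4 in those CX-5461 cells were close to those of all CX-5461 ES cells, and Pou5f1 and Sox2 were lower. Their median depth was 6729 UMIs, against 14676 in the CX-5461 ES cells. CX-5461 ES cells of 5000 to under 10000 UMIs, nearer in depth, had Pou5f1 at 582 CPM and Sox2 at 155 CPM. Beside these, Sox2 was lower in the high-mitochondrial cells and Pou5f1 was close. The median mitochondrial share was 15.7% in the high-mitochondrial CX-5461 cells and 4.53% in the CX-5461 ES cells of that depth. Levels are per all UMIs, mt- genes included, so this difference in share also enters what is called close or lower here.

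Zscan4a to Zscan4f are expressed in 2-cell embryos and in the 2C-like cells of mES cultures, which are known for low OCT4 protein. Of the ES cells, 7 in control and 48 in the CX-5461 library had 5 or more UMIs of these genes at the deposited depth (at most 80 and 178), and none of the Zscan4-high cells kept by the methods' filter was fibroblast-like. At the limit, 1 control and 10 CX-5461 ES cells had 4 such UMIs, and 1 and 9 had 5. In the CX-5461 library Pou5f1 was at 571 CPM (479 to 675) in the Zscan4-high cells and 727 CPM (715 to 739) in the 3868 ES cells with no Zscan4 UMI, a log2 ratio of -0.35 (-0.60 to -0.11). A Pou5f1 UMI was seen in 39 of the 48 cells (81.3%, 67.4 to 91.1) against 94.4% of the cells without Zscan4. Pou5f1 transcripts were thus lower and still present in most Zscan4-high cells.

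Utf1 showed the widest gap of the genes with enough UMIs, at 33.3 CPM (14.4 to 65.7) in Zscan4-high and 85.7 CPM (81.6 to 89.9) in Zscan4-negative CX-5461 cells, 2.57-fold lower with a log2 ratio of -1.36 (-2.58 to -0.38). Sox2 was at 87.5 and 138 CPM, a log2 ratio of -0.66 (-1.36 to -0.05), and Nanog at 196 and 219 CPM, a log2 ratio of -0.16 (-0.61 to 0.25). In the 115 CX-5461 cells with 1 to 4 Zscan4 UMIs Nanog was higher, at 323 CPM (279 to 373) against 219 CPM (213 to 226) at 0. With the cut at 2 UMIs its log2 ratio was 0.18 (-0.12 to 0.46), so its direction depends on the cut. Sall4, with 4 UMIs in all thinned Zscan4-high cells, had a log2 ratio of -0.96 (-2.84 to 0.40). In all kept cells at the deposited depth, 51 of them Zscan4-high, the log2 ratios were -0.23 (-0.37 to -0.09) for Pou5f1, -0.93 (-1.50 to -0.42) for Utf1, -0.26 (-0.61 to 0.07) for Sox2 and 0.14 (-0.49 to 0.71) for Sall4. The Zscan4-negative cells of that set also take in shallow, high-mitochondrial and fibroblast-like cells, so both cells and depth differ from the thinned comparison. The direction of Sall4 between Zscan4-high and Zscan4-negative cells was therefore not detectable with these counts, and that of Pou5f1 and Utf1 was the same in both sets.

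The median of the 9 log2 ratios was -0.54, the value of Fgf4, which rested on 3 UMIs (-2.82 to 1.02). Sall4, Prdm14, Nr5a2 and Tcf3 also held 1 to 4 UMIs each in these cells. The median gene in this comparison, at -0.13, was taken over genes with more UMIs, so the medians are not alike. Among 1685 genes expected to have at least 20 UMIs in the Zscan4-high cells, 7.24% were lower by 1.5-fold or more relative to the median gene and 3.50% higher, and of the 4 core genes among them (Pou5f1, Sox2, Nanog and Utf1) only Utf1 was past that fold. In control the 7 cells held 28 Pou5f1 UMIs after thinning, where the level of Zscan4-negative cells gives 31.4. They held 0 Utf1 UMIs (at most 105 CPM) where that level gives 4.08, and at the deposited depth the 9 Zscan4-high cells kept in control held 4 Utf1 UMIs, at 37.6 CPM against 106 CPM in Zscan4-negative cells. Sall4 stood at 8 UMIs in the 7 cells where 3.18 would match, the direction opposite to that of the thinned CX-5461 cells.

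**Figure D5:**
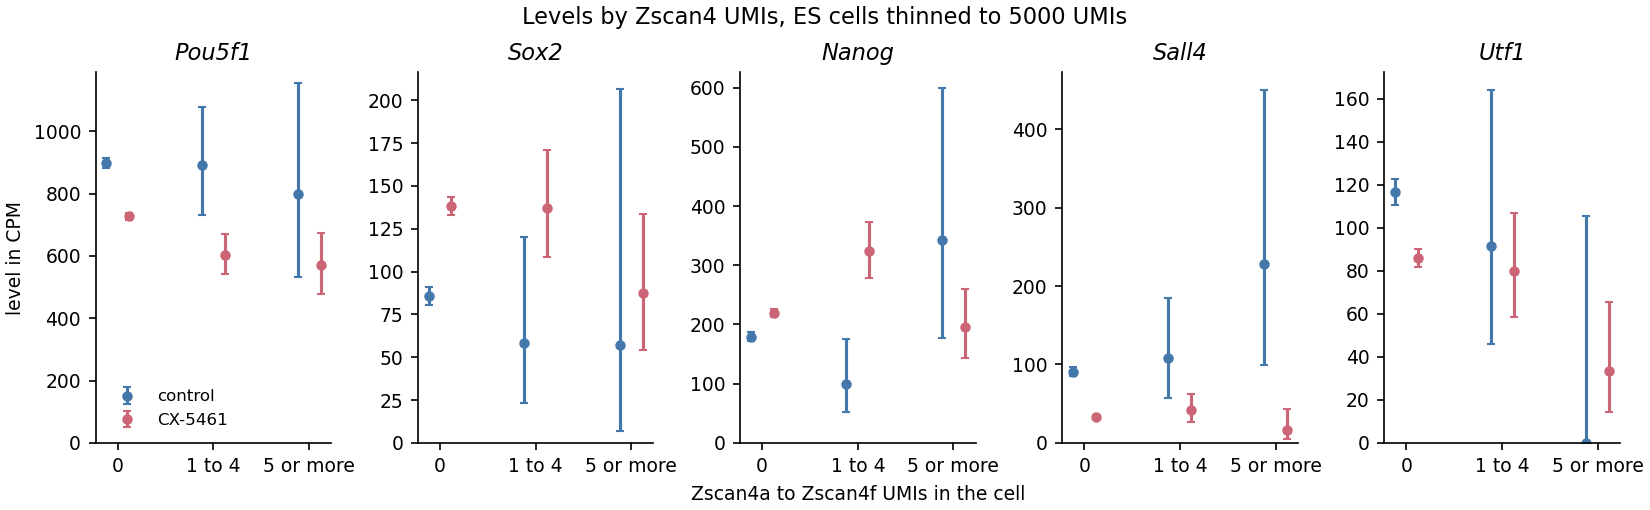
Level in CPM of Pou5f1, Sox2, Nanog, Sall4 and Utf1 in thinned ES cells with 0, 1 to 4, and 5 or more UMIs of Zscan4a to Zscan4f, control in blue and CX-5461 in red, with 95% intervals of counting error; each panel has its own axis from 0. In the CX-5461 library Utf1 goes from 85.7 to 33.3 and Pou5f1 from 727 to 571 CPM, and the wide control bars rest on 7 cells.

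Across single cells the core transcripts hardly varied together. Over the 36 pairs of the 9 genes, Pearson's r of log-normalized thinned values ran from -0.01 to 0.13 over 2544 control cells and from -0.01 to 0.09 over 4031 CX-5461 cells. Such values in sparse counts from 1 library are no finding. The genes most like Pou5f1 among 3509 with at least 1000 UMIs, ranked by the lower r of the libraries, were Dppa5a, Chchd10, Ftl1-ps1, Eif5a and H2afz. Dppa5a, an abundant transcript of naive mES cells, had r = 0.51 in control and 0.35 in CX-5461 cells, and without cells at 0.02% or more of fibroblast UMIs 0.17 and 0.32. The control value thus rested in large part on the mixed cells and the CX-5461 value did not. Ftl1-ps1 is a pseudogene whose reads cannot be told from those of its parent gene. Nanog was most like H2afz, Gabarapl2, Mkrn1, Zfp42 and Eif2s2 (r of 0.11 to 0.18 in both libraries), and Sox2 was most like Zfp42, Gm47457, Kdm3a, Ncl and Gm48377 (0.07 to 0.11). Without cells at 0.02% or more of fibroblast UMIs the control values were 0.03 to 0.07 for Nanog, with Gabarapl2 alone still among its first 5, and 0.02 to 0.06 for Sox2, with Zfp42 and Kdm3a still among them.

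Among 28 genes for proteins known to act with OCT4, all passed the minimum of 100 UMIs, and relative to the median gene 1 was higher and 5 were lower by 1.5-fold or more, beside 20.9% and 17.4% of all genes, with a median log2 ratio of -0.07 on totals against 0.32 for all genes. Wdr5, a subunit of histone H3K4 methyltransferase complexes, was lowest at 96.6 CPM in control and 52.8 CPM in CX-5461 cells, followed by Gatad2a (35.3 and 26.3 CPM) and Sall1 (12.3 and 9.82 CPM), a paralog of Sall4. Mta1 was highest at 14.2 and 31.0 CPM, followed by Mta3 (34.3 and 57.0 CPM), and both encode subunits of the nucleosome remodelling and deacetylase complex NuRD, as Gatad2a does. Smarca4, the ATPase of the BAF remodelling complex, came next at 58.7 and 88.5 CPM. Genes of the NuRD complex thus stood at both ends of the list.

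In the naive network, 0 of 20 genes were higher and 4 were lower by 1.5-fold or more relative to the median gene (Lin28a, Tet2, Zfp42 and Tet1), beside 20.9% and 17.4% of all genes. Lin28a, an RNA-binding protein, was at 18.9 CPM in control and 1.64 CPM in CX-5461 cells, Zfp42, which encodes the naive mES cell marker REX1, at 810 and 447 CPM, while Klf4, a Kruppel-like factor of the naive state, was at 97.0 and 140 CPM and Dppa4 at 45.5 and 74.8 CPM. Klf2 was at 39.3 and 53.9 CPM.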

How the data were processed

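The data are single-cell RNA-seq of untreated and of CX-5461-treated mES cells. According to the methods and labels, libraries were made with the 10x Genomics 3′ v2 chemistry, mapped to mm10, and read into gene by barcode matrices with a published droplet pipeline; Seurat 2.3.4 is named in the submitters' processing notes. The authors deposited raw UMI counts, not normalized, in 1 table per condition. Barcodes were renumbered in both tables, so barcodes shared between libraries could not be counted. The control table held 3838 barcodes and 49610287 UMIs and that of CX-5461 held 4922 and 69841836. The methods' filter (at least 500 UMIs, at most 0.2 mitochondrial) left 3767 and 4697 cells, more than the study plotted. Doublets were not called. A further deposited column of counts shared between genes was 0 for all 9 genes.

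Symbols and positions came from GENCODE M21, GRCm38 (52480 of 54146 identifiers matched with version, 54079 without). Of overlapping genes, antisense Gm19553 (Pou5f1) held 3 and 0 thinned UMIs, Sox2ot (Sox2) 7 and 18, and Gm14261 (Sall4) 0 and 0, and the pseudogenes Nanog-ps1 and Nanog-ps2 held 0. Counts of 3′ ends were not scaled by transcript length, so levels were compared between libraries. Where UMIs of 1 gene are given per UMIs of another or as a share of the 9, they are read for the difference between libraries. Cells were thinned without replacement to 5000 UMIs (Python 3.11.15, NumPy 2.4.6). Exact 95% intervals were Poisson for levels, Clopper-Pearson for shares and, for ratios, binomial given the summed count. Genes with at least 100 thinned UMIs over both libraries were called past a 1.5-fold ratio relative to the median gene. With 1 library per condition there is no test and no p-value. Correlations used log values scaled to 10000 UMIs per cell. All 9 genes are named, with the 5 genes most correlated with Pou5f1, Sox2 and Nanog, and, from each list of partners or related genes, the 3 highest and 3 lowest ratios among genes past the minimum, or all genes of lists of up to 10. Genes and lists were chosen with earlier results of these data known. Ratios, intervals, thinning and correlations were tested on simulated data. The alternative settings covered scaling, thinning, cell filters, the fibroblast cut and the Zscan4 cut, and edgeR 4.0.16 (R 4.3.3) supplied TMM factors on the summed counts. The restriction to cells under 0.02% of fibroblast UMIs was chosen after seeing the data.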

Additional observations from a re-analysis of the deposited data

How the results depend on the processing

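No paired analysis was possible because the labels number 4 samples per condition but the tables carry no sample of origin. There was 1 library per condition, so no replicate was left out.

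With TMM scaling, which put the median of all genes at 0.01, the median log2 ratio of the 9 genes was -0.35, against -0.04 on totals. A fold of 2 left 1 gene past it, Sall4 (lower), against 3 at 1.5-fold, where 7.11% of all genes were lower and 12.3% higher by a fold of 2. On library totals without centring 3 genes were past 1.5-fold as well, but they were Sall4, Sox2 and Prdm14. Over the 14 alternatives of scaling, thinning and cell filters the log2 ratio on totals ran from -0.63 to -0.25 for Pou5f1, from 0.38 to 0.76 for Sox2, from -1.80 to -1.33 for Sall4, from -0.76 to -0.39 for Utf1 and from 0.36 to 0.81 for Prdm14. Nanog was above 0 in 13 of the 14 and Tcf3 in 13, each below 0 with TMM, and Nr5a2 was above 0 in 8 and below in 6. Relative to the median gene Nanog stayed within -0.10 and 0.01. With at most 0.05 mitochondrial, 4 genes were lower, Fgf4 being the addition. In Zscan4-high CX-5461 cells the median log2 ratio of the 9 genes ran from -1.08 to -0.32 over 5 alternatives, against -0.54. These medians rest on genes with few UMIs in those cells.

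Limits are the single library per condition, the mixing of treatment with library, the shift of the median gene, and shallow counts of Prdm14, Fgf4, Nr5a2 and Tcf3. The 7 control Zscan4-high cells hold too few UMIs to give a ratio for most of the genes. Intervals cover counting error only, and PCR, capture and culture differences are not in them.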

Other observations

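Of 14 close relatives of the 9 genes, 6 passed the minimum of 100 UMIs over both libraries. Sox15, which encodes an HMG-box factor able to bind with OCT4, stood at 7.31 CPM in control and 49.5 CPM in CX-5461 ES cells, a 6.77-fold ratio on totals. The other 5 were lower relative to the median gene. Sox4 was at 5.58 and 2.83 CPM, Sall1 at 12.3 and 9.82 CPM, Sall3 at 9.91 and 8.53 CPM, Pou2f1, the ubiquitous octamer factor OCT1, at 18.0 CPM in both, and the orphan receptor gene Nr6a1, a repressor of Pou5f1 in differentiating cells, at 14.3 and 10.1 CPM. In all, 1 of the 6 was higher and 3 were lower by 1.5-fold or more relative to the median gene, beside 20.9% and 17.4% of all genes. Sall1 is also counted as lower among the genes for proteins that act with OCT4.

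Among the FGF and ERK genes, 8 of 15 passed the minimum, of which 2 were higher and 4 lower by that fold, beside 20.9% and 17.4% of all genes. Spry2, a feedback inhibitor of FGF signalling, was at 38.2 CPM in control and 15.3 CPM in CX-5461 cells, 2.49-fold lower on totals. Dusp6, a phosphatase of ERK, was at 6.92 and 3.72 CPM, and the ETS factor gene Etv4 at 32.8 and 19.8 CPM. Fos was at 65.4 and 125 CPM and the receptor gene Fgfr1 at 20.8 and 30.5 CPM. Fgfr4 had 3 thinned UMIs in control and 106 in CX-5461 cells, a log2 ratio of 4.48 (2.89 to 6.78). Etv5, also lower by that fold relative to the median gene, was at 66.0 and 53.4 CPM.

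Of 8 genes linked to PRDM14 and DNA methylation all passed the minimum, with 0 higher and 3 lower by that fold, beside the same 20.9% and 17.4%. Uhrf1, which brings DNMT1 to replicated DNA, was at 151 and 78.5 CPM, Tet1 at 65.2 and 38.5 CPM and Tet2 at 24.5 and 13.4 CPM. Tet1 and Tet2 are also counted as lower in the naive network, so the counts of these lists are not separate. Dnmt3a (3.77 and 6.70 CPM), Dnmt1 (50.2 and 71.6 CPM), Cbfa2t2 (10.1 and 14.1 CPM), whose protein binds PRDM14, Dnmt3b (17.3 and 19.3 CPM) and Dnmt3l (13.3 and 14.4 CPM) were within the fold.

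Of 6 partners and inhibitors of the E protein TCF3, 5 passed the minimum, with 0 higher and 1 lower by that fold, again beside 20.9% and 17.4%. Tcf4, a related E protein, was at 13.7 and 8.78 CPM, and Tcf12 had 89 and 181 thinned UMIs. The inhibitor genes Id1, Id2 and Id3 were at 24.1 and 26.3, 3.30 and 5.71, and 84.4 and 127 CPM. Id4, under the minimum, held 19 UMIs in control and 76 in CX-5461 cells.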
